A study of Mus musculus with 6 samples.

Results

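Transcription regulators of the intestinal secretory lineage, namely Atoh1, Spdef, Gfi1, Sox9, Creb3l1, Klf4, Foxa3 and Cbfa2t3, were followed from stem-like cells to Paneth, goblet and enteroendocrine cells (EECs) in mouse small intestinal organoids. The 8 genes were chosen by symbol, and each symbol named 1 of the 32285 features measured. In the intestinal epithelium, cells in which Notch signalling is low switch on Atoh1, a basic helix-loop-helix activator that is needed for all Paneth, goblet and EEC formation. Gfi1, a zinc-finger repressor, and Spdef, an ETS factor, act below Atoh1 in Paneth and goblet cells, whereas Neurog3 starts the EEC branch. Sox9 is an HMG-box factor of stem cells and of Paneth cell formation, Klf4 a zinc-finger factor of goblet cell maturation, Foxa3 a forkhead factor of goblet cells and EECs, Creb3l1 a membrane-bound factor of the secretory pathway, and Cbfa2t3 a corepressor of the ETO family.

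Single-cell 3′ RNA counts of 6 libraries, all from day 3 of culture, were analysed. The libraries fall into 4 groups, all of organoids grown from stocks made from 10-week-old adult mice in medium with EGF, Noggin and R-spondin. WT -EIPA (n = 2) was wild-type organoids given DMSO, and WT +EIPA (n = 2) was wild-type organoids given 5 µM EIPA, an amiloride derivative. CRISPR -Dox and CRISPR +Dox (n = 1 each) were organoids with a doxycycline-inducible Cas9-EGFP vector and a guide, without and with 2 µg/mL doxycycline (Dox). CRISPR lines were picked as single puromycin-resistant organoids, so they stand for few clones. Live cells were sorted in every group, and only the CRISPR +Dox cells were also gated on GFP. The study asked whether intracellular pH bears on lineage choice. The 2 libraries of each WT group came from 2 experiments, and the CRISPR groups had no replicate.

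After cells with under 1000 genes or 20% or more mitochondrial counts were left out, 12083 to 18211 cells per library remained, with a median of 11478 to 17020 unique molecular identifiers (UMIs) per cell. Any pair of libraries shared 33 to 78 barcodes. Summed markers of mesenchyme, immune cells and endothelium were at most 0.13, 0.82 and 0.45 CPM (UMI counts scaled to a total of 1000000) over all cells of any library. Within single classes of cells, named below, they reached 1.29 CPM (EEC-progenitor-like), 37.1 CPM (tuft-like) and 9.24 CPM (EEC-like).

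Cells were grouped by clustering, with the 8 factors left out of the genes used to cluster and out of the markers that named the clusters. The names are "-like" because they rest on markers only. Of the 24 first clusters 7 got no name, and cells without a name made up 24.7 to 33.2% of a library. They were left out when the highest or lowest class of a factor was sought. No cluster could be called a secretory progenitor from Dll1, Dll4, Hes6 and Mfng. Sub-clusters with goblet markers and Dll1, the Notch ligand of early secretory cells, among their 10 leading genes were used instead. Their cells are called Dll1-led cells below. They made up 2.67 to 3.34% of a library (332 to 609 cells). Goblet-like cells made up 2.41 to 4.41%, Paneth-like cells 4.04 to 9.05%, and EEC-progenitor-like cells, led by Neurog3, numbered 125 to 271 per library. Goblet-like and Paneth-like cells were mixed in their markers. Summed goblet markers were at 19379 to 37865 CPM in goblet-like and 18065 to 26056 CPM in Paneth-like cells. Summed Paneth markers were at 18916 to 47955 CPM in goblet-like and 143769 to 243887 CPM in Paneth-like cells. Of the Dll1-led cells, 19.0 to 28.3% had a doublet score among the 10% highest of their library. Dll1-led cells still carried 1283 to 1722 CPM of summed cell-cycle markers, against 710 to 977 CPM in goblet-like cells. Dll1, Dll4, Hes6 and Mfng summed to 214 to 325 CPM in Dll1-led and 184 to 240 CPM in goblet-like cells. In EEC-progenitor-like cells they summed to more, 427 to 535 CPM, so Dll1-led cells are not the class highest in these genes.

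The genes lie on 8 chromosomes of the mm10 build. Atoh1 (ENSMUSG00000073043) is at chr6:64729125-64731245 on the plus strand, Sox9 (ENSMUSG00000000567) at chr11:112782224-112787760 on the plus strand, and Creb3l1 (ENSMUSG00000027230) at chr2:91982328-92024502 on the minus strand. Spdef (ENSMUSG00000024215) is at chr17:27714352-27728955, Gfi1 (ENSMUSG00000029275) at chr5:107716657-107726036, Klf4 (ENSMUSG00000003032) at chr4:55527143-55532466, Foxa3 (ENSMUSG00000040891) at chr7:19013284-19023538 and Cbfa2t3 (ENSMUSG00000006362) at chr8:122625141-122699109, all on the minus strand.

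Promoter sequences from RefSeq (GRCm38.p6) were at hand for 6 of the 8 genes, as 8 promoters of 300 bases each. They were searched on both strands for CAGCTG and CAGATG, E-box hexamers of the kind that Atoh1 and other basic helix-loop-helix factors bind. The 250 bases before the start site were taken for the lineage's first factor and for the factor highest in EEC-progenitor-like cells. They were also taken for Klf4, called lower with EIPA in Dll1-led cells when libraries were paired by experiment. They are shown 5′ to 3′ on the gene's strand, with each hexamer in capitals. They are chr6:64728875-64729124 for Atoh1, chr4:55532476-55532725 for Klf4 and chr8:122699110-122699359 for Cbfa2t3.
Atoh1: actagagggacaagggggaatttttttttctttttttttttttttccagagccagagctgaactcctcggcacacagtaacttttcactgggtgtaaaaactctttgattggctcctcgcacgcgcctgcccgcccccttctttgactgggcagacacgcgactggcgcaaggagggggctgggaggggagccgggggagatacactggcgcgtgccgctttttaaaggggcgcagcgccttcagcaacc
Klf4: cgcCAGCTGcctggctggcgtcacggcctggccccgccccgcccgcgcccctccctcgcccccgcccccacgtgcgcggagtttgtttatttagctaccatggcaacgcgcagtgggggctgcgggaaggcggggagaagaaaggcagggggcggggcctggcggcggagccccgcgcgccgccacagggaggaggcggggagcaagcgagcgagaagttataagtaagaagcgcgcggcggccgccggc
Cbfa2t3: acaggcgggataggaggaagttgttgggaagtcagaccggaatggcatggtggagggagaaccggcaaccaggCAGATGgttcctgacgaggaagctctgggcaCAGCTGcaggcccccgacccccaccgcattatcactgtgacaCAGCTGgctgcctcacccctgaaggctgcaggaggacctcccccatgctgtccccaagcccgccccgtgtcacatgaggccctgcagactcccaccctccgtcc
The Klf4 promoter held 1 CAGCTG, and the Cbfa2t3 promoter shown held 2 CAGCTG and 1 CAGATG. The other Cbfa2t3 promoter, at chr8:122678126-122678425, held neither. The promoters of Atoh1, Spdef, Gfi1 and Foxa3 held neither. Of all 32851 promoters of this length, 30.6% held at least 1 of the hexamers, so 2 of 8 is near that share.

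Atoh1, Spdef and Gfi1 were almost absent from stem-like cells and appeared together in the Dll1-led, goblet-like and Paneth-like cells. Libraries are given here and below in the order WT -EIPA 1 and 2, WT +EIPA 1 and 2, CRISPR -Dox, CRISPR +Dox. Atoh1 was at 2.31, 2.54, 2.24, 3.13, 1.96 and 2.66 CPM in ISC-like cells (intestinal stem cells, led by Lgr5 and Olfm4). It was at 54.6, 48.6, 49.9, 61.5, 64.8 and 58.6 CPM in Dll1-led cells and at 84.4, 85.0, 73.9, 83.8, 87.1 and 76.3 CPM in goblet-like cells. In Paneth-like cells it was at 78.2, 80.5, 64.4, 77.4, 81.1 and 62.5 CPM, a range that overlaps the goblet-like one and lies above most of the Dll1-led one. Counted over UMIs outside product genes, which make up much of the RNA of Paneth cells, Atoh1 was highest in Paneth-like cells in 5 of 6 libraries, but in goblet-like cells in 6 of 6 with doublets removed or at a coarser clustering, so the order of these classes was not fixed. EEC-progenitor-like cells had 2.57 to 13.9 CPM and EEC-like cells 3.05 to 11.1 CPM, and enterocyte-like cells, which should lack it, had 1.07 to 2.41 CPM. Atoh1 RNA was therefore seen mainly in the Paneth and goblet arm, and the Neurog3-led cells, at 832 to 1065 CPM of Neurog3, had little of it when sampled.

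Spdef was at 0.80 to 2.73 CPM in ISC-like cells. In Dll1-led cells it was at 71.3, 77.2, 65.3, 74.5, 70.5 and 46.9 CPM, where CRISPR +Dox was the lowest. In goblet-like cells it was at 113, 94.6, 87.7, 92.3, 109 and 84.8 CPM, above the same library's Dll1-led and Paneth-like values in 6 of 6 libraries. When cells were clustered without correction across libraries, this held in 3 of 6, the Dll1-led cells being higher in the others. Paneth-like cells had 65.1 to 76.9 CPM. Gfi1 was low everywhere, at 10.1 to 15.8 CPM in Dll1-led, 13.2 to 22.5 CPM in goblet-like and 9.63 to 16.4 CPM in Paneth-like cells. These 3 ranges overlap, and no other class passed 3.05 CPM. With doublets removed, goblet-like cells had 17.7 to 30.7 CPM of Gfi1 and were the highest class in 6 of 6 libraries.

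**Figure D1:**
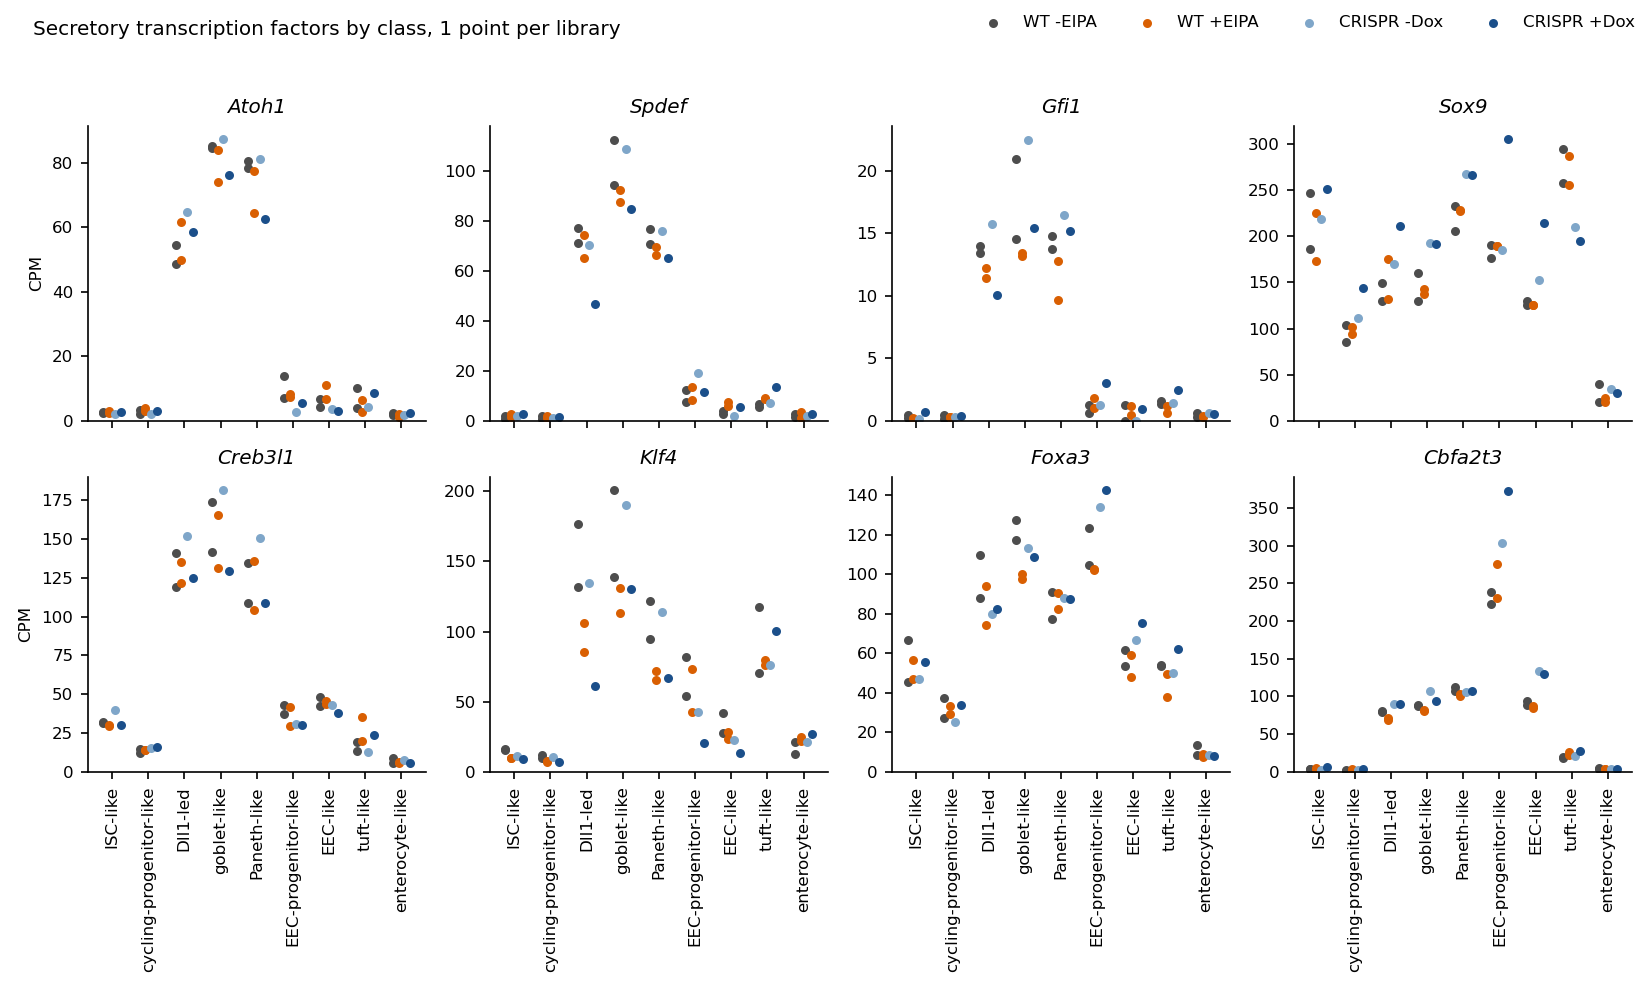
Level of each factor (CPM, vertical axes from 0, a separate scale for each gene) in 9 cell classes, with 1 point per library coloured by group. Atoh1, Spdef, Gfi1 and Creb3l1 stand highest in Dll1-led, goblet-like and Paneth-like cells, Klf4 stands highest in goblet-like cells and is also present in tuft-like cells, Cbfa2t3 stands highest in EEC-progenitor-like cells, and Sox9 is spread over ISC-like, Paneth-like, EEC-progenitor-like and tuft-like cells.

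Counted over all UMIs of a gene, 72.2 to 77.4% of Atoh1, 76.2 to 83.5% of Spdef and 76.4 to 85.5% of Gfi1 molecules lay in Dll1-led, goblet-like and Paneth-like cells. These classes held 9.11 to 16.4% of the cells of a library. The share was 53.0 to 63.1% for Cbfa2t3, 45.9 to 58.4% for Creb3l1 and 40.4 to 51.8% for Klf4. It was 24.9 to 35.5% for Foxa3 and 16.0 to 28.2% for Sox9, whose molecules lay mostly outside the secretory classes, with 26.5 to 33.4% of Sox9 in cycling-progenitor-like cells. Enterocyte-like cells held 6.91 to 28.8% of all Klf4 molecules although Klf4 was low there in CPM.

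**Figure D2:**
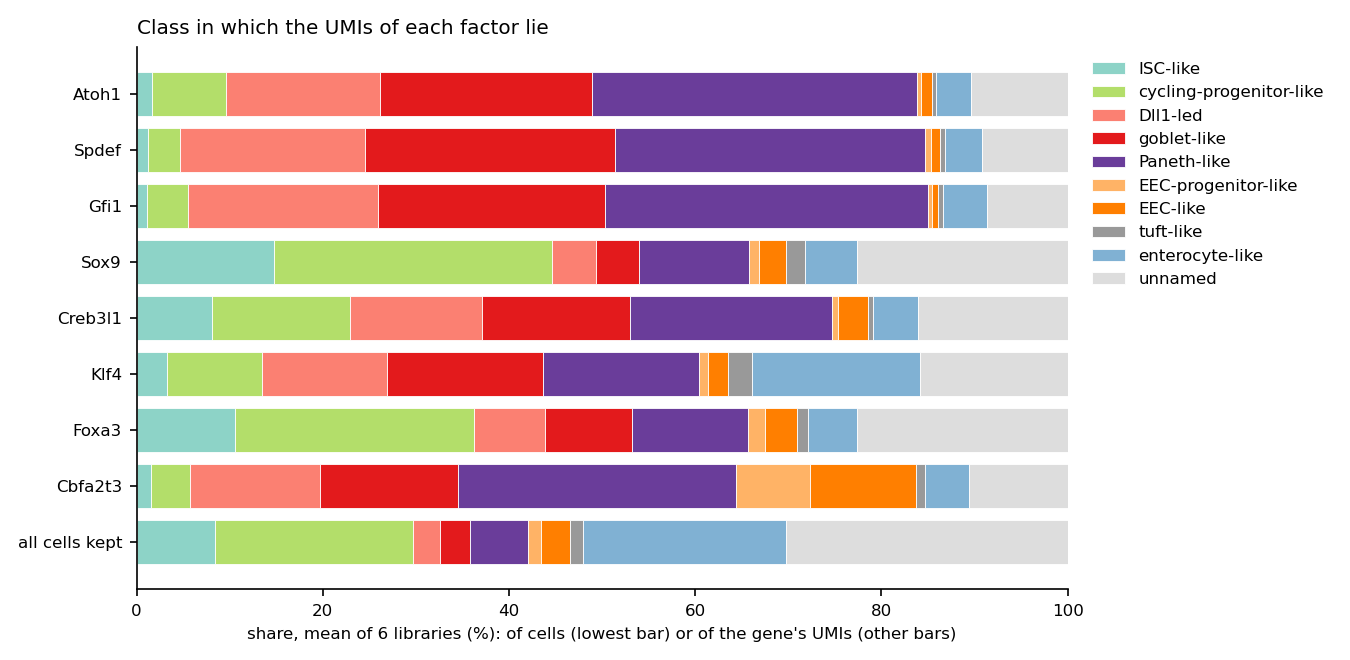
Share (%) of each gene's UMIs by cell class, as the mean of 6 libraries, with the share of cells in the lowest bar. Atoh1, Spdef and Gfi1 have over 70% of their UMIs in the Dll1-led, goblet-like and Paneth-like segments, and Sox9 has under 30% there.

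Sox9, Foxa3 and Creb3l1 were already present in ISC-like cells. Sox9 was at 186, 247, 173, 226, 219 and 252 CPM in ISC-like cells, fell to 85.7 to 144 CPM in cycling-progenitor-like cells, and was at 129 to 211 CPM in Dll1-led, 130 to 193 CPM in goblet-like and 206 to 268 CPM in Paneth-like cells. Tuft-like cells had 195 to 294 CPM and EEC-progenitor-like cells 176 to 306 CPM. The order among tuft-like, Paneth-like, ISC-like and EEC-progenitor-like cells was not fixed, since their ranges overlap, and enterocyte-like cells were the lowest in 6 of 6 libraries at 20.2 to 40.1 CPM. Foxa3 was at 45.6 to 66.7 CPM in ISC-like cells and at 74.1 to 110 CPM in Dll1-led cells. It was highest in EEC-progenitor-like cells (102 to 143 CPM) in 4 libraries and in goblet-like cells (97.5 to 127 CPM) in 2. Outside product genes it was highest in goblet-like, Paneth-like and EEC-progenitor-like cells in 2 libraries each, and without correction of the clustering across libraries it was highest in Dll1-led cells in 3, so its order among these classes was not fixed. Creb3l1 was at 29.3 to 40.0 CPM in ISC-like cells and at 119 to 152 CPM in Dll1-led cells. It reached 129 to 181 CPM in goblet-like and 104 to 150 CPM in Paneth-like cells, while EEC-progenitor-like and EEC-like cells stayed at 29.2 to 48.0 CPM.

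Cbfa2t3 was highest in CPM in EEC-progenitor-like cells, though most of its molecules lay in the Paneth and goblet arm. It was at 2.19 to 6.66 CPM in ISC-like cells and at 238, 222, 231, 276, 304 and 373 CPM in EEC-progenitor-like cells, the highest class in 6 of 6 libraries. EEC-like cells had 84.2 to 134 CPM and Paneth-like cells 101 to 112 CPM. Goblet-like cells, at 80.7 to 107 CPM, and Dll1-led cells, at 68.9 to 90.5 CPM, overlapped each other. These are shares of RNA, not amounts per cell. EEC-progenitor-like cells had a median of 4836 to 6068 UMIs, against 8903 to 13167 in Paneth-like cells. The few EEC-progenitor-like cells held 6.0 to 10.2% of all Cbfa2t3 molecules, and EEC-like cells 8.5 to 14.6%. Klf4 was highest in goblet-like cells in 6 of 6 libraries (4 of 6 when clustered without correction across libraries), and its values there are given with the treatments below. In tuft-like cells Klf4 was at 117, 70.3, 79.9, 76.3, 76.4 and 100 CPM, above the Paneth-like level of the same library in the 3 treated libraries and below it in the 3 untreated ones. In CRISPR +Dox it was also above Dll1-led cells (61.2 CPM).

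The share of cells with at least 1 UMI gave a like order of appearance. Each cell was thinned to 2000 UMIs so that depth was equal, which left out 18 to 99 cells per library. The median over libraries in ISC-like cells was 34.0% for Sox9, 10.5% for Foxa3 and 6.06% for Creb3l1, against 3.51, 1.28 and 1.03% in enterocyte-like cells, which were taken as background. Klf4 was at 2.22% in ISC-like and 5.12% in enterocyte-like cells. Atoh1 (0.31%), Spdef (0.33%), Cbfa2t3 (0.55%) and Gfi1 (0.046%) in ISC-like cells were at or below their enterocyte-like shares of 0.39, 0.39, 0.73 and 0.079%. With doublets removed at this depth, Atoh1 was at 0.32% in ISC-like and 0.24% in enterocyte-like cells, with ranges over libraries that overlap. Cbfa2t3 was then at 0.56 and 0.57%, and Spdef and Gfi1 stayed below their enterocyte-like shares. In CPM, each library had more Atoh1 in ISC-like than in enterocyte-like cells. Whether Atoh1 in ISC-like cells stands above background was therefore not settled. Thinned to 4000 UMIs, Atoh1 was at 0.73% in ISC-like and 0.55% in enterocyte-like cells and Cbfa2t3 at 1.46 and 1.39%, with ranges over libraries that overlap. In Dll1-led cells Atoh1 was seen in 10.6%, Spdef in 13.2%, Cbfa2t3 in 15.8% and Klf4 in 22.0% of cells. Goblet-like cells had 19.6% for Atoh1, 21.0% for Spdef, 4.95% for Gfi1 and 29.1% for Klf4, and Paneth-like cells had 14.2% for Atoh1, 13.9% for Spdef and 37.1% for Sox9. Atoh1 was seen in 0.77% of EEC-progenitor-like cells, where Cbfa2t3 was seen in 42.5%. Unthinned, Cbfa2t3 was seen in 58.0 to 79.4% of EEC-progenitor-like and 59.4 to 72.0% of Paneth-like cells, which overlap. Without thinning, Atoh1 was seen in 51.3 to 64.8% of goblet-like cells (median 9148 to 13329 UMIs) and in 1.05 to 3.29% of enterocyte-like cells (median 11138 to 16960 UMIs). RNA of secretory products was also present in enterocyte-like cells, and each treated library had more Lyz1, Muc2 and Defa24 there than its control. Lyz1 there was at 54.2 and 180 CPM in WT -EIPA, 97.2 and 212 CPM in WT +EIPA, 165 CPM in CRISPR -Dox and 483 CPM in CRISPR +Dox, and the part of free RNA or doublets in it was not tested.

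To order the factors within the Paneth and goblet arm, Dll1-led, goblet-like and Paneth-like cells were binned by the share of their UMIs from product genes, and each factor was given as CPM of the UMIs outside the product genes. This is a description, since the bins are drawn from the same cells. Along the goblet products (Muc2, Clca1, Tff3 and 10 others, in cells with under 5% Paneth products), the bins were 0 to 0.25, 0.25 to 0.5, 0.5 to 1, 1 to 2 and over 2% of UMIs and held 277, 781, 1273, 1204 and 1457 cells. Lgr5, a stem cell receptor, fell from a median of 84.2 to 26.7 CPM from the lowest to the highest bin, and the proliferation gene Mki67 from 194 to 63.2 CPM.

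In the medians, 7 of the 8 factors were higher in the highest bin of goblet products than in the lowest, and Sox9 was not. Atoh1 had medians of 22.6, 38.8, 53.8, 79.0 and 117 CPM along the bins, Spdef 17.3, 37.6, 65.1, 110 and 145 CPM, and Gfi1 2.44, 6.08, 13.4, 20.8 and 22.4 CPM. Creb3l1 levelled off between the last bins, at 201 and then 194 CPM, from 41.5 CPM in the lowest. Klf4 had medians of 35.8, 77.3, 104, 147 and 266 CPM, with the largest step in CPM into the last bin and the largest fold between the first bins. Sox9 had medians of 145, 150, 163, 182 and 144 CPM and was highest in the fourth bin in 5 libraries and in the lowest in CRISPR +Dox. Each factor was also set against its own highest bin in each library. The bin at which 50% of that level was reached had a median of 1 for Sox9, 2 for Foxa3, 3 for Creb3l1 and Cbfa2t3, 3.5 for Spdef and Gfi1, and 4 for Atoh1 and Klf4. Over libraries this bin ranged from 2 to 3 for Foxa3 and Cbfa2t3, from 3 to 4 for Atoh1 and Gfi1, from 3 to 5 for Spdef and from 4 to 5 for Klf4, and it was 1 for Sox9 and 3 for Creb3l1 in every library. By this measure, which depends on the open last bin, Klf4 came after Foxa3, Cbfa2t3 and Creb3l1, whereas Atoh1, Spdef and Gfi1 could not be ordered among themselves. The shares of cells by class, given above for Klf4 as 22.0 and 29.1% in Dll1-led and goblet-like cells, were close to those of Creb3l1 at 22.5 and 29.3%, and do not separate the pair.

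Along the Paneth products (defensins, Lyz1, Mmp7 and others), the bins of 0 to 2, 2 to 5, 5 to 10, 10 to 20 and over 20% held 3744, 1248, 1404, 1963 and 2385 cells. Lgr5 did not fall along these bins, with medians of 49.3, 87.4, 92.3, 97.4 and 88.6 CPM, while Mki67 went from 160 to 75.4 CPM. These bins therefore cannot be read as steps away from Lgr5-rich cells. Sox9 rose along every bin, with medians of 137, 200, 241, 286 and 377 CPM, and was highest in the last bin in 6 of 6 libraries. Cbfa2t3 went from 84.5 to 168 CPM and Atoh1 from 66.0 to 120 CPM. Creb3l1 was highest in the fourth bin in 6 of 6 libraries (176 CPM) and stood at 150 CPM in the last. Klf4 was highest in the lowest bin in 6 of 6 libraries, at 148 CPM, and had 87.5, 88.0, 106 and 125 CPM in the next bins. Klf4 and Sox9 parted along the products of the 2 cell types, with Klf4 highest in cells rich in goblet products and Sox9 highest in cells rich in Paneth products.

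**Figure D3:**
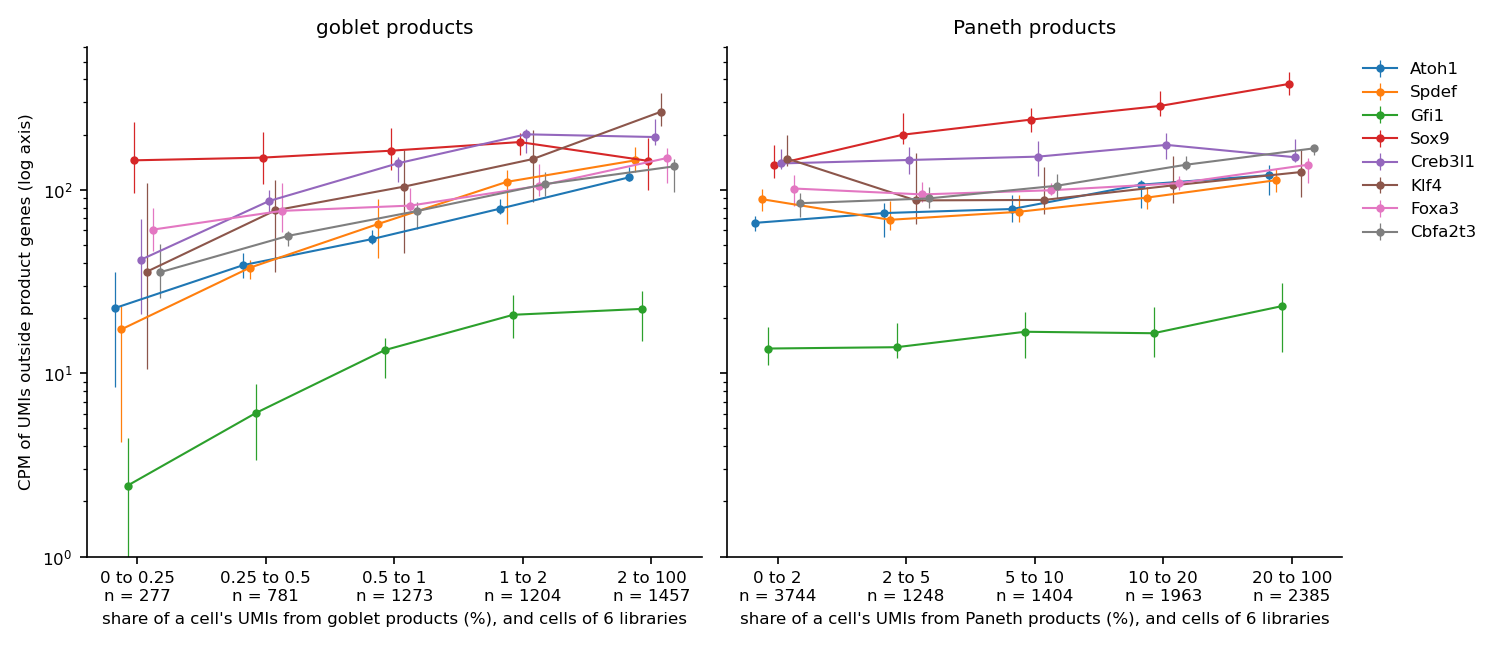
Level of each factor outside product genes (CPM, log axis) in bins of the share of a cell's UMIs from goblet products (left) or Paneth products (right). Points are medians of 6 libraries and bars run from the lowest to the highest library (for Gfi1 in the lowest goblet bin the lowest library is at 0, below the axis). Klf4 rises to 266 CPM on the left and Sox9 to 377 CPM on the right.

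Over the 54 values of 9 classes in 6 libraries, the genes whose log2(CPM + 1) was most like that of each factor were looked up among 7943 genes of mean CPM 10 or more. The points share libraries, and cells of a class share their markers, so this is a description. Atoh1 was most like Agr2, a disulfide isomerase of mucin-making cells (r = 0.96), Tpsg1 and Ccl9 (both 0.95). Spdef was most like Atoh1 (0.95), Fcgbp (0.95) and Ccl9 (0.94). Gfi1 was most like Spdef (0.97), Atoh1 (0.96) and C1galt1c1 (0.95), a chaperone of mucin glycosylation. Creb3l1 was most like Impad1 (0.95), Galnt12 (0.94) and Txndc5 (0.92), the last of them a disulfide isomerase. Cbfa2t3 was most like the Notch ligand gene Dll4 (0.97), Wnt3 (0.96) and Tecpr1 (0.94). Foxa3 was most like Fgfr2 (0.94), Wars (0.93) and Rab15 (0.92), Sox9 most like Pla2g12a (0.92), Arhgap39 and Cited4 (both 0.90), and Klf4 most like Rap1gap (0.88), Ano7 (0.87) and Rassf6 (0.86).

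Klf4 was lower with EIPA in Dll1-led, goblet-like, Paneth-like and ISC-like cells, in a fit that pairs the libraries by experiment and not in one that does not. In Dll1-led cells it was at 177 and 132 CPM in the WT -EIPA libraries and at 106 and 85.3 CPM in the WT +EIPA libraries. The treated libraries were both below both untreated ones, at 60.1% of untreated in experiment 1 and 64.8% in experiment 2. The log2 change was -0.65 (SE 0.16, n = 2 against 2). It did not pass edgeR's quasi-likelihood test without the pairing of experiments (adjusted p = 0.47), and passed with the replicate block (-0.64, SE 0.08, adjusted p = 2.5e-08). The blocked fit can measure little of a gene's own spread, so its small p-values rest largely on variance pooled across genes. With doublets removed the blocked change was -0.55 (edgeR adjusted p = 1.9e-07), and without correction of the clustering across libraries it was -0.45 (edgeR adjusted p = 8.3e-04).

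In goblet-like cells Klf4 was at 201 and 139 CPM without and 131 and 114 CPM with EIPA, or 65.4 and 81.6% of untreated, and both treated libraries were again below both untreated ones. The blocked log2 change was -0.40 (SE 0.10, edgeR adjusted p = 0.0045), and the change without the block was -0.43 (edgeR adjusted p = 0.84). The blocked call was lost with doublets removed (edgeR adjusted p = 0.24) and without correction of the clustering (edgeR adjusted p = 0.066). In Paneth-like cells Klf4 was at 122 and 94.5 CPM without and 71.6 and 65.2 CPM with EIPA, or 58.9 and 69.0%. The blocked change was -0.53 (SE 0.11, edgeR adjusted p = 1.4e-04), and without the block it was -0.55 (edgeR adjusted p = 1.0). In ISC-like cells, where it is low, Klf4 was at 15.9 and 15.3 CPM without and 9.88 and 9.67 CPM with EIPA, or 62.1 and 63.1%, with a blocked change of -0.61 (SE 0.13, edgeR adjusted p = 3.7e-04) and an unblocked one of -0.61 (SE 0.12, edgeR adjusted p = 1.0).

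The change was not seen in every class. In enterocyte-like cells Klf4 was at 21.3 and 12.4 CPM without and 24.6 and 22.0 CPM with EIPA, a rise with the block (0.65, SE 0.17, edgeR adjusted p = 0.049) and no call without it (0.60, edgeR adjusted p = 0.32). The change in Dll1-led cells less that in enterocyte-like cells was -1.17 on the log2 scale, in Paneth-like cells -1.13 and in goblet-like cells -0.94, and none of the differences passed limma's test across genes (adjusted p = 0.20, 0.10 and 0.23, and 0.18, 0.066 and 0.15 with the block). In EEC-like cells the change was -0.34 (edgeR adjusted p = 1.0, and 0.71 with the block) and in EEC-progenitor-like cells -0.18 (edgeR adjusted p = 1.0, and 0.87 with the block), where treated and untreated libraries overlapped. Over all cells Klf4 changed by -0.11 (edgeR adjusted p = 0.78, and 0.46 with the block). A change over all cells cannot be told apart from a change in the shares of the classes.

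With the clusters described above and all 4 libraries, none of the other 7 factors passed the test in any class, with or without the block. When cells were clustered without correction across libraries, Sox9 (-0.44), Creb3l1 (-0.32) and Foxa3 (-0.32) passed as well in ISC-like cells with the block. In that fit 4 of 7 factors, Klf4 included, were lower, where 9.58% of 12453 genes were called lower and 2733 genes were called in all. In Dll1-led cells 0 of 8 factors were called without the block, where 0.0454% of 11010 genes were, and 1 of 8 with it, Klf4, which was lower, where 1.24% of genes were called lower and 3.21% in either direction. In goblet-like cells the counts were 0 and 1 of 8 against 0.0829 and 2.93% of 10863 genes (0.635% lower with the block), and in Paneth-like cells 0 and 1 of 8 against 0 and 1.89% of 11434 genes (0.542% lower). ISC-like cells had 0 and 1 of 7 factors tested against 0 and 5.6% of 11754 genes (2.42% lower), and enterocyte-like cells 0 and 1 of 8, Klf4 being higher, against 0.0392 and 6.91% of 12758 genes (5.35% higher). In EEC-like cells 0 of 7 factors were called in either fit, against 0 and 0.887% of 11831 genes, and in EEC-progenitor-like cells 0 of 6, against 0.0362 and 1.09% of 8292 genes. Gfi1 was filtered out as too low in ISC-like, EEC-like and EEC-progenitor-like cells, and Atoh1 in EEC-progenitor-like cells.

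At an unadjusted p under 0.05 in edgeR without the block, the count was 1 of 8 in Dll1-led, goblet-like and Paneth-like cells and 1 of 7 in ISC-like cells, Klf4 each time, where 5.7, 5.57, 3.08 and 3.62% of all genes were. It was 1 of 7 in EEC-like cells, Spdef, where 2.15% of genes were. It was 0 in EEC-progenitor-like cells, enterocyte-like cells and all cells together, where 4.94, 16.6 and 10.1% of genes were. DESeq2 called 0 of the factors after adjustment in every class. Of all genes it called 16 of 11010 in Dll1-led, 38 of 10863 in goblet-like and 4 of 8292 in EEC-progenitor-like cells. It called 520 of 12758 in enterocyte-like cells and 614 of 15890 over all cells. Where so few genes are called, 0 says little about the factors. Of all genes without the block, edgeR called 0 in Paneth-like, EEC-like and ISC-like cells, where 352, 254 and 425 had an unadjusted p under 0.05 and DESeq2 called 23, 10 and 18.

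Atoh1 changed by 0.16 (SE 0.14) in Dll1-led, -0.06 (SE 0.13) in goblet-like and -0.04 (SE 0.17) in Paneth-like cells. Spdef changed by -0.05 (SE 0.12), -0.16 (SE 0.13) and -0.01 (SE 0.15) in these classes, and Creb3l1 by 0.02 (SE 0.12), -0.05 (SE 0.14) and 0.08 (SE 0.15). In these 3 classes Gfi1 had the largest value apart from Klf4, -0.41 (SE 0.21) in goblet-like cells (edgeR adjusted p = 0.95, and 0.29 with the block), at 14.5 and 20.9 CPM without and 13.2 and 13.4 CPM with EIPA. It was -0.074 without WT -EIPA replicate 2. Foxa3 changed by -0.27 (SE 0.12) there (edgeR adjusted p = 0.90, and 0.17 with the block). Larger values were fitted where the factors are scarce. In EEC-like cells Spdef changed by 0.96 (SE 0.37, edgeR adjusted p = 1.0, and 0.48 with the block), at 2.59 and 3.97 CPM without and 7.48 and 5.77 CPM with EIPA on 7 to 34 UMIs per library. Atoh1 changed by 0.84 there (SE 0.37, edgeR adjusted p = 1.0, and 0.30 with the block), and Spdef by 0.72 in ISC-like cells (SE 0.48, edgeR adjusted p = 1.0, and 0.21 with the block). With 1 library left out in turn, these changes ran from 0.75 to 1.41, from 0.38 to 1.17 and from 0.32 to 1.44. Sox9 changed by 0.19 (SE 0.15) in Dll1-led and 0.16 (SE 0.15) in Paneth-like cells. The median over the 8 factors was -0.10 in Dll1-led cells, -0.11 in goblet-like cells and 0.00 in Paneth-like cells, where the median over all genes was 0.00 each time. Over all cells Cbfa2t3 was higher with EIPA in the blocked fit (0.31, SE 0.05, edgeR adjusted p = 0.043, 1 of 8 factors, where 5.28% of 15890 genes were called and 4.47% were higher) and not in the unblocked one (edgeR adjusted p = 0.74, 0 of 8 factors and 0 of all genes, with 1601 genes at an unadjusted p under 0.05 and 614 called by DESeq2). The unblocked change of Cbfa2t3 was 0.055 without WT +EIPA replicate 2, 0.11 without WT -EIPA replicate 1, 0.53 without WT +EIPA replicate 1 and 0.54 without WT -EIPA replicate 2.

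**Figure D4:**
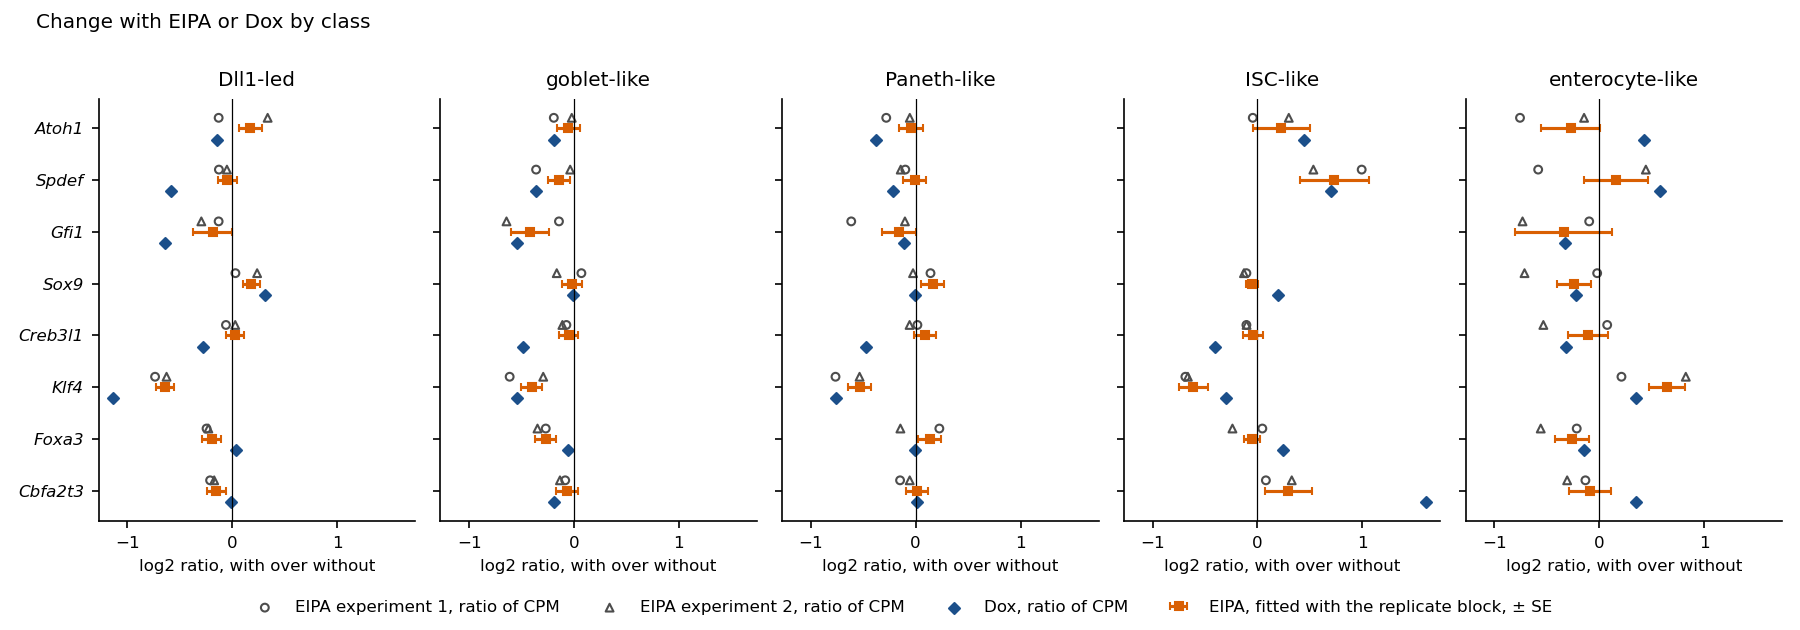
Log2 ratio with over without treatment for each factor in 5 classes: the EIPA change fitted with the replicate block with its SE (squares), the ratio of CPM in each of the 2 EIPA experiments (open circles and triangles) and the ratio in the single Dox pair (diamonds). Klf4 lies left of 0 in Dll1-led, goblet-like, Paneth-like and ISC-like cells in all 3 pairs and right of 0 in enterocyte-like cells, and no other factor does so. Gfi1 in ISC-like cells has too few UMIs and is not drawn.

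The CRISPR pair, which shares no library with the EIPA comparison and has no replicate, gave these values side by side. Klf4 went from 135 CPM (95% Poisson interval for counting error 126 to 144) without Dox to 61.2 CPM (55.8 to 67) with Dox in Dll1-led cells, from 190 to 130 CPM in goblet-like cells and from 114 to 67.1 CPM in Paneth-like cells. These are 45.5, 68.5 and 59.0% of the level without Dox, and in ISC-like cells it was 81.4%. In enterocyte-like cells Klf4 was at 21.0 and 26.8 CPM. Spdef went from 70.5 to 46.9 CPM and Gfi1 from 15.8 to 10.1 CPM in Dll1-led cells. Of the 8 factors, 3 were lower by more than 1.5-fold in Dll1-led cells (Klf4, Spdef and Gfi1), where 3.69% of 9838 genes with at least 50 UMIs were. Spdef lay at the limit, and Gfi1, which is low in counts, lay near it. No interval was set on either ratio, so counting error could move both across the limit. With clusters made without correction across libraries Spdef was at 84.0 CPM without and 74.1 CPM with Dox in Dll1-led cells, short of 1.5-fold. In goblet-like cells 0 of 8 were, where 4.63% of genes were, and the median log2 ratio was -0.28 against -0.10 over all genes. In Paneth-like cells 1 of 8 was, Klf4, where 4.73% of genes were, and the median was -0.17 against -0.15 over all genes.

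Cbfa2t3 in ISC-like cells went the other way, from 2.19 CPM on 39 UMIs to 6.66 CPM on 100 UMIs. With Spdef, which had 1.68 CPM on 30 UMIs and 2.73 CPM on 41 UMIs, it was 1 of 2 factors more than 1.5-fold higher there, of 7 with at least 50 UMIs in the pair, where 2.99% of genes were. Values outside the secretory classes differed the same way elsewhere too. Cbfa2t3 went from 1.96 to 3.82 CPM in cycling-progenitor-like and from 3.28 to 4.19 CPM in enterocyte-like cells, and Spdef from 1.69 to 2.53 CPM in enterocyte-like cells, beside the Lyz1 values there given above, and the part of free RNA in the ISC-like values was not tested. Over all cells, 3 of 8 factors were more than 1.5-fold higher with Dox, where 12.3% of genes were, namely Cbfa2t3 (13.6 to 25.4 CPM), Atoh1 (8.48 to 12.9 CPM) and Spdef (8.41 to 12.8 CPM), although Atoh1 and Spdef were below their level without Dox within Dll1-led, goblet-like and Paneth-like cells. These classes together held more of the CRISPR +Dox library, where goblet-like cells were 4.41% against 2.41% without Dox. In cells without a class name 4 of 8 factors were past 1.5-fold higher and 0 lower, where 8.69 and 4.02% of 12280 genes were. The median log2 ratio there was 0.73 against -0.053 over all genes. In cycling-progenitor-like cells 2 of 7 were higher and 1 lower, where 5.30 and 3.00% of genes were. In EEC-progenitor-like cells 1 of 5 was higher and 1 lower, where 9.60 and 4.43% were. In EEC-like cells 1 of 5 was lower and 0 higher, where 4.15 and 3.07% were. The +Dox cells were gated on GFP and had a median of 17020 UMIs against 11952, and the part of either in these values was not tested.

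Klf4 did not move alone. A list of 11 immediate-early and stress genes, chosen after the values of Klf4 were seen, was read in the same fits. As the list was chosen with these data known, its counts beside the share of all genes are a description and no test. In Dll1-led cells 10 of them could be tested, and 2 were lower without the block, where 0.0363% of all genes were, Atf3 (-2.45, edgeR adjusted p = 0.046) and Fos (-1.05, edgeR adjusted p = 0.046). With the block 8 were lower, where 1.24% of all genes were, and none higher, among them Jun (-0.75), Fosb (-1.79) and Klf6 (-0.82), and the median over the 10 genes was -0.72. Fos was at 383 and 359 CPM without and 164 and 185 CPM with EIPA, and at 525 CPM without and 201 CPM with Dox. Jun was at 296 and 290 CPM without and 185 and 158 CPM with EIPA, and at 320 and 174 CPM in the Dox pair. These genes were also lower in enterocyte-like cells with the block (Fos -1.51 and Jun -1.21), where Klf4 was higher. In goblet-like cells 8 of 10 listed genes were lower with the block and 1, Hspa1b, was higher, where 2.93% of all genes were called. Such genes respond to handling and stress as well as to signalling, and their part in the Klf4 result was not tested.

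Along the goblet products, Klf4 was lower in each treated library than in its own control in every bin. In the bin of 0.5 to 1% it was at 165 and 123 CPM in WT -EIPA, 96.4 and 80.9 CPM in WT +EIPA, 112 CPM in CRISPR -Dox and 45.1 CPM in CRISPR +Dox. In the bin over 2% it was at 335 and 266 CPM in WT -EIPA, 263 and 224 CPM in WT +EIPA, 331 CPM in CRISPR -Dox and 266 CPM in CRISPR +Dox. The last bin was the highest in all 6 libraries, treated ones included.

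**Figure D5:**
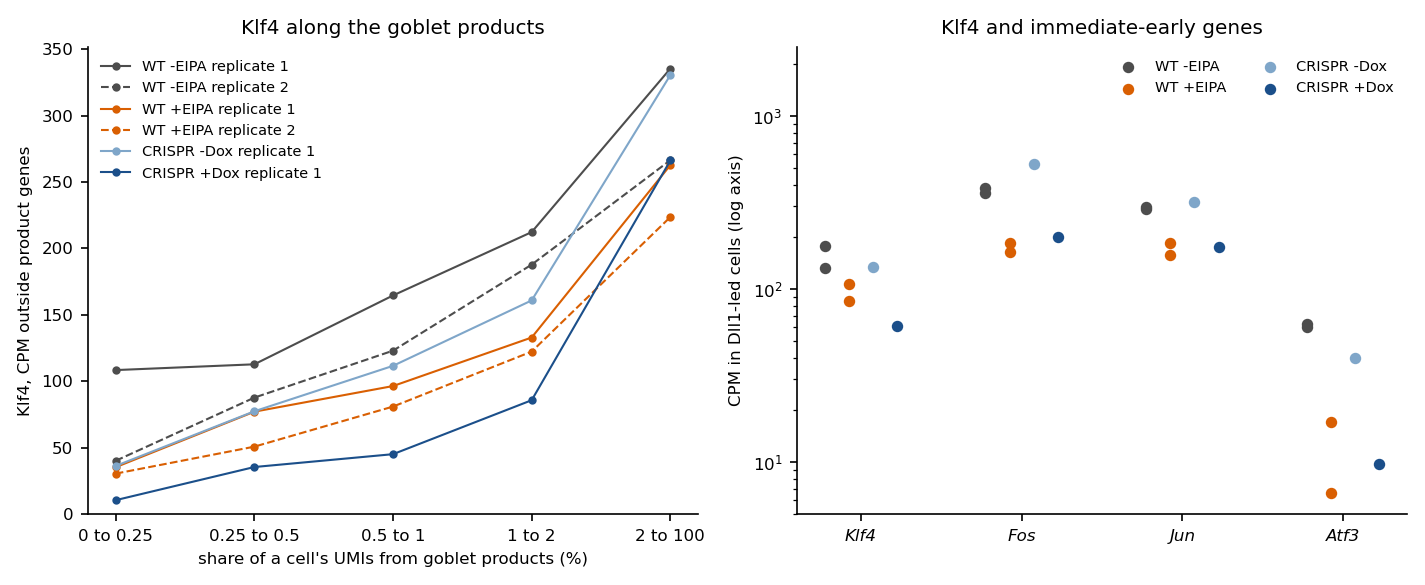
Left, Klf4 outside product genes (CPM) against the share of a cell's UMIs from goblet products (%), with 1 line per library (dashed for replicate 2). Right, Klf4, Fos, Jun and Atf3 in Dll1-led cells (CPM, log axis), 1 point per library. Each treated library lies below its own control in every bin on the left and for all 4 genes on the right, and Klf4 is highest in the last bin in all 6 libraries.

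Of the Notch axis, 11 of 13 listed genes could be tested in Dll1-led cells. None passed without the block (median -0.15, against 0.00 over all genes), and Dll1 (-0.55, SE 0.09, edgeR adjusted p with the block 2.5e-06) and Hes6 (-0.30, SE 0.08, edgeR adjusted p with the block 0.022) were lower with it, where 1.24% of all genes were. Dll1 was at 136 and 128 CPM in WT -EIPA and 93.0 and 82.6 CPM in WT +EIPA, and at 117 CPM without and 82.7 CPM with Dox, so each treated library was below each untreated one. Dll1 was also lower with the block in goblet-like cells (-0.44, edgeR adjusted p = 0.0056) and Paneth-like cells (-0.45, edgeR adjusted p = 0.012). Hes1, the Notch target that represses Atoh1, was at 98.1 and 85.7 CPM without and 88.4 and 101 CPM with EIPA in Dll1-led cells, and overlapped. In EEC-progenitor-like cells Hes1 was at 40.4 and 28.8 CPM without and 15.7 and 15.4 CPM with EIPA, on 15 to 45 UMIs per library, and was the 1 of 8 tested genes of the list to pass with the block (-1.11, SE 0.31, edgeR adjusted p = 0.032), where 1.09% of all genes did.

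A list of 16 further genes of the secretory lineage holds regulators and, with Agr2 and Spink4, genes of secretory products and their folding. Of these, 15 could be tested in Dll1-led cells, and none passed without the block. With it, Neurog3 (-0.97), Insm1 (-1.15), Foxa2 (-0.45) and Sox4 (-0.53) were lower, and Agr2 (0.28), Bhlha15 (0.74) and Spink4 (0.66) were higher. These are 7 of 15 genes, where 3.21% of all genes were called. Neurog3 and Insm1 are regulators of EEC formation. Neurog3 in Dll1-led cells was at 35.5 and 52.4 CPM without and 39.7 and 11.6 CPM with EIPA, so the low value came from experiment 2 alone, and the level in EEC-progenitor-like cells overlapped between groups (966 and 832 CPM without, 956 and 1065 CPM with EIPA). Spink4 was at 3487 and 3552 CPM without and 4271 and 6847 CPM with EIPA. Goblet-like cells had Spink4 higher with the block (0.28), 1 of 15 tested genes, where 2.93% of all genes were called. Paneth-like cells had Neurog3 lower with it (-0.76), 1 of 15, where 1.89% of all genes were called. EEC-progenitor-like cells had Neurod1 and Spink4 (0.56) higher with it, 2 of 14, where 1.09% were. Spink4 was also higher and Sox4 lower with the block in ISC-like cells (0.30 and -0.23) and enterocyte-like cells (0.59 and -0.89), outside the secretory classes. No other gene of the list was called there, of 15 and 16 tested, where 5.6 and 6.91% of all genes were called. Other secretory products moved with Spink4 in enterocyte-like cells, where Defa24 was at 350.0 and 1026 CPM without and 589 and 1547 CPM with EIPA, and their part in the Spink4 values was not tested.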

How the data were processed

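Per the labels and the study's methods, live cells sorted from mouse small intestinal organoids on day 3 were profiled with 10x Genomics 3′ chemistry. The authors deposited 1 matrix of UMI counts per library, made with Cell Ranger 6.1.2 on GRCm38 (mm10) per the submitters' processing notes. The counts are raw. The study then filtered cells by genes, total RNA and mitochondrial RNA, with limits that are not given in the sources used here. The 8 factors, the gene lists and the markers were chosen with earlier results of these data known.

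A cell was used if it had 1000 genes or more and if mitochondrial UMIs made up less than 20%. Pearson residuals of 3000 genes were taken within each library, without the 37 genes of the 8 factors, the Notch list and the list of other regulators. They gave 45 principal components, which were corrected across libraries with the Harmony algorithm, written out for this work, and clustered by the Leiden method on a shared-neighbour graph (20 neighbours, resolution 0.8, igraph 0.11.9, Python 3.11.15). Secretory cells were clustered again (13 components, resolution 1). A cluster took the name of the type with the most of its 117 listed markers among the 10 leading genes by fold, with at least 2 among the 20 leading genes and at least 3 above the other cells. This rule was set after the clusters were seen, as were the use of Dll1-led cells in place of secretory progenitors and the list of immediate-early genes. Doublets were kept. Scrublet scores (scanpy 1.11.5) were computed, but the automatic threshold called 0.0476 and 0% of cells in 2 libraries, so an alternative dropped the 10% highest scores of each library.

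The UMIs of a class were added up within each library, and CPM scales them to a total of 1000000. EIPA was tested over the 4 WT libraries with edgeR 4.0.16 (R 4.3.3; TMM, filterByExpr, trended dispersions, quasi-likelihood F test), and p-values were adjusted by Benjamini and Hochberg's method across every gene in the fit (threshold 0.05). Tests in 5 sets of cells were planned, and ISC-like, enterocyte-like and EEC-progenitor-like cells were added after the data were seen. The SE of a log2 change is its size over the root of F. The difference of the EIPA change between classes was tested with limma 3.58.1, with 1 CPM added before the log2. DESeq2 1.42.0 was an alternative. Cell Ranger's counts collapse PCR copies, and Poisson intervals (95%) cover counting error only. The CRISPR pair has 1 library a group and got no test. A gene there was counted as past 1.5-fold only with at least 50 UMIs in the pair.

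The study's source data list WT libraries 1 and 2 under experiments 1 and 2, and the replicate numbers of the labels, which say nothing more of pairing, were taken as these experiments. Same-numbered libraries deviated together from their group means, with a correlation across genes of 0.69 over all cells, 0.42 in Dll1-led, 0.39 in goblet-like, 0.48 in Paneth-like, 0.46 in EEC-like, 0.23 in EEC-progenitor-like, 0.61 in ISC-like and 0.46 in enterocyte-like cells, which with 2 libraries a group is 1 value per class. The fit without the replicate block was the planned one, and the blocked fit is given beside it where it changes a call. The blocked fit leaves 1 residual degree of freedom per gene, so its p-values and SEs rest largely on variance pooled across genes. Each fit was tested on its own simulated data, in which 200 genes differed. A shift between experiments was put only into the data of the blocked fit, and each set used the dispersions of its own fit. For Dll1-led cells, 17% of 1.5-fold, 74% of 2-fold and 94% of 4-fold changes were recovered without the block, and 52, 86 and 88% with it, with 1.94 and 5.44% false calls. As the data differ, these shares cannot say which fit is better.

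The genes named are the 8 factors, the 3 genes most like each, and from both lists Dll1, Hes1, Neurog3 and those that passed the test in a class. Alternatives were DESeq2, no TMM, no filter on low counts, the replicate block, removal of doublets, stricter limits on cells (2000 genes, 10% mitochondrial UMIs), no correction across libraries, a resolution of 0.5 and leaving out each library in turn. The promoters of Sox9 and Creb3l1 were not used here, and the gene targeted by the guide is not reported here.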

Additional observations from a re-analysis of the deposited data

How the results depend on the processing

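Without the block, edgeR called 0 genes over all cells and in Paneth-like, EEC-like and ISC-like cells, 5 in Dll1-led, 9 in goblet-like, 3 in EEC-progenitor-like and 5 in enterocyte-like cells. The replicate block, which pairs the libraries by experiment, called 839 over all cells, 353 in Dll1-led, 318 in goblet-like, 216 in Paneth-like, 105 in EEC-like, 90 in EEC-progenitor-like, 658 in ISC-like and 881 in enterocyte-like cells. In the same order the blocked fit called 1185, 287, 138, 161, 97, 34, 657 and 1725 with doublets removed. It called 194 in Dll1-led, 249 in goblet-like, 135 in Paneth-like, 99 in EEC-like, 44 in EEC-progenitor-like, 2733 in ISC-like and 2105 in enterocyte-like cells without correction across libraries. In this last fit, and not in the same clusters without the block, Sox9 (-0.44), Creb3l1 (-0.32) and Foxa3 (-0.32) were called lower in ISC-like cells. Apart from these, the block changed calls of Klf4 and, over all cells, of Cbfa2t3, and of no other factor. All further settings are without the block.

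DESeq2 called 614 over all cells, 16 in Dll1-led, 38 in goblet-like, 23 in Paneth-like, 10 in EEC-like, 18 in ISC-like and 520 in enterocyte-like cells. Without TMM the count was 27 in goblet-like, 41 in Paneth-like and 1 in enterocyte-like cells. Without the filter on low counts it was 198 over all cells, 165 in Dll1-led, 193 in goblet-like, 114 in Paneth-like, 67 in EEC-like, 46 in EEC-progenitor-like, 117 in ISC-like and 1214 in enterocyte-like cells, and Klf4 was then called in Dll1-led, ISC-like and enterocyte-like cells. Removing doublets gave 15 in goblet-like, 3 in Paneth-like, 3 in EEC-like and 6 in EEC-progenitor-like cells, and the stricter limits on cells gave 1 in Dll1-led, 33 in goblet-like, 2 in EEC-like and 9 in EEC-progenitor-like cells. No correction across libraries gave 12 in Dll1-led, 1 in Paneth-like and 3 in ISC-like cells, and a resolution of 0.5 gave 15 in Dll1-led, 16 in goblet-like and 3 in Paneth-like cells. Leaving out 1 library in turn gave 0 to 137 over all cells, 3 to 111 in Dll1-led, 22 to 89 in goblet-like, 0 to 38 in Paneth-like, 5 to 15 in EEC-like, 21 to 81 in EEC-progenitor-like, 0 to 45 in ISC-like and 0 to 1421 in enterocyte-like cells, where the group left with 1 library is assumed to vary like the other.

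Over these alternatives the Klf4 change ran from -0.85 to -0.43 in Dll1-led, -0.67 to -0.16 in goblet-like, -0.73 to -0.37 in Paneth-like, -0.67 to -0.59 in ISC-like, -0.64 to -0.077 in EEC-like, -0.61 to 0.18 in EEC-progenitor-like and 0.23 to 1.09 in enterocyte-like cells. Without the block the Klf4 change was -0.80 in Dll1-led cells without WT +EIPA replicate 1. It was 1.09 in enterocyte-like cells without WT -EIPA replicate 1, where that of Sox9 was -0.66. Such fits leave 1 library in a group, so no call of a factor is given for them. Without WT +EIPA replicate 2, the change of Atoh1 turned to -0.13 over all cells (range over the left-out libraries -0.13 to 0.71) and -0.023 in Dll1-led cells (-0.023 to 0.31), where Sox9 turned to -0.055 (-0.055 to 0.39). Without WT -EIPA replicate 2, Sox9 turned to 0.23 and Foxa3 to 0.047 (-0.51 to 0.047) in enterocyte-like cells. Spdef in goblet-like cells was 0.070 without correction across libraries, both with and without the block. A change smaller than its SE was given no direction. The cause of these shifts was not tested. With doublets removed or at the resolution of 0.5, goblet-like cells were the class of highest Gfi1 in 6 of 6 libraries, and the highest Foxa3 was in goblet-like cells in 5. Without correction across libraries, goblet-like cells were highest in Atoh1, Gfi1 and Klf4 in 4 libraries and in Spdef in 3. Precision is limited by 2 libraries a group and, for Gfi1, by low counts.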

Other observations

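Within the goblet-like cells, 4 sub-clusters differed in the factors, which were not used to cluster. One of 1318 cells had the highest Creb3l1 (234 to 314 CPM over the 6 libraries) and Cbfa2t3 (140 to 182 CPM), with Klf4 at 108 to 224 CPM. Another of 658 cells had Klf4 at 249 to 390 CPM, with Sox9 at 78.0 to 126 CPM against 223 to 345 CPM in the first. In it Lgr5 was also low, at 7.91 to 38.7 CPM against 52.7 to 80.0 CPM. The smallest, of 237 cells and as few as 16 in 1 library, had Klf4 at 192 to 326 CPM and the lowest Sox9 (19.9 to 86.3 CPM). Klf4 in either of these overlapped with the other and not with the sub-cluster of 552 cells that was lowest in Klf4 (29.3 to 75.4 CPM) and Atoh1 (28.1 to 36.1 CPM) and held the most Olfm4 of the 4. Of these 552 cells 64.1% were marked as doublets, with a median UMI count 2.61 times that of their library, and the part of doublets in these values was not tested.

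An unnamed set of 806 cells, in which the enterocyte gene Fabp1 stood at 4500.4 to 14889 CPM, had Atoh1 at 15.6 to 35.5 CPM and Spdef at 17.0 to 38.8 CPM. Both lie above the enterocyte-like and below the Dll1-led range. Of these cells 85.4% were marked as doublets, their median UMI count was 2.12 times that of their library, and Lyz1 was at 2128 to 10155 CPM. The part of doublets or free RNA in the values was not tested.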
